A study of Mus musculus with 6 samples.

Results

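Matrix metalloproteinases (MMPs), their tissue inhibitors (TIMPs) and the ADAM and ADAMTS proteases were followed in LSK-SLAM cells (Lin- c-Kit+ Sca-1+ CD150+ CD48-), a bone marrow population enriched for hematopoietic stem cells (HSC). Members were chosen by gene name: a probe counted when the array's annotation named an Mmp, Timp, Adam or Adamts gene followed by a number. This gave 106 probes of 78 genes, among 39429 probes of 31693 genes or named transcripts on the array. They are 23 MMP, 4 TIMP, 32 ADAM and 19 ADAMTS genes. The name rule used no measured value, but the family was taken up because earlier results of these data had shown a set of MMP-activating genes higher in the mutant cells. The differences between genotypes below are therefore descriptions of these arrays.

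The cells came from secondary recipients, called 2T. In the study's methods, fetal liver cells of p190-B-/- embryos or of WT littermates (CD45.2+), together with competitor marrow (CD45.1+), went into lethally irradiated congenic mice, and marrow of these went into further lethally irradiated mice. Fetal liver was used because loss of p190-B, a GTPase-activating protein, is lethal in embryos, and every 2T cell of either genotype had passed through both transplants. The deletion is constitutive, not driven by a Cre. RNA was amplified as cDNA, labelled with Cy3 and read on 6 single-colour Agilent mouse arrays, 3 of 2T-WT and 3 of 2T-p190-B-/- cells. The figure legend of the study speaks of 3 independent mice per group, taken on 3 independent occasions, whereas the labels name only replicates and no day, so p-values measure the spread between these arrays.

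MMPs are secreted or membrane-bound zinc enzymes that cut collagens, proteoglycans, cytokines and receptors. They are made as inactive proenzymes, which other proteases such as trypsin, plasmin or tryptase can activate, and TIMPs block the active site. ADAMs span the membrane and shed the outer part of receptors, adhesion molecules and growth factors, while many ADAMs of the testis act in sperm and lack the zinc site. ADAMTS enzymes are secreted and cut proteoglycans, procollagens or von Willebrand factor. In bone marrow, MMP-9 from neutrophils and other cells is known for releasing Kit ligand and for its part in stem cell mobilization, and ADAM10 and ADAM17 shed receptors of blood cells.

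All values are log2 of the background-corrected spot signal relative to the 75th percentile of the same array, so 0 is that percentile and each unit is a doubling. Differences are 2T-p190-B-/- minus 2T-WT on this scale, with the standard error (SE) of the limma fit over all probes tested. A probe was tested when its signal was well above background, as the scanner software judges it, on at least 3 of the 6 arrays. The level this takes differed by array. The lowest signal above background was -2.69, -4.02 and -2.26 on 2T-WT replicates 1 to 3. It was -4.84, -2.86 and -3.78 on 2T-p190-B-/- replicates 1 to 3. A value can thus pass on an array where a higher value misses on another. A gene with several probes is given by its tested probe of highest mean, and levels of different probes are not compared.

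The arrays differed before scaling. The 75th percentile of the signal was 53.9 to 227 in 2T-WT and 252 to 385 in 2T-p190-B-/-, without overlap. The arrays lay on 3 slides, and the slide numbered 2 here held 2 arrays of each group (2T-WT replicates 2 and 3, 2T-p190-B-/- replicates 1 and 2). The single probe of Arhgap5, the gene of p190-B, was above background on 0 arrays of 2T-WT and 1 of 2T-p190-B-/-, so it checks no label. Of the sort's own markers, Ly6a (Sca-1) was above background on 6 arrays, Kit on 5 and Slamf1 (CD150) on 0. Over 21645 genes tested, 68.3% of all, the median difference was -0.35, and under quantile normalization it was -0.11.

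The sequences that bear on the family are of 2 kinds. The first are promoters of the MMP genes that lie side by side on chromosome 9, since a short letter pattern recurs in them. The search was for TGACTCA, the core site of the AP-1 factors, on either strand in the 250 bases before each gene start in RefSeq's table (GRCm38.p6). It was found in 7 of the 10 genes of this cluster, Mmp1a, Mmp1b, Mmp3, Mmp7, Mmp10, Mmp12 and Mmp13. Elsewhere among the 48 member genes with a promoter in the table it stood only before Adam19 and Adam29. Of all 32851 promoters in the table, 4.46% held it. The last 120 bases before the start of 4 of these genes follow, 5′ to 3′ on the gene's strand, with the pattern in capitals.
Mmp13, chr9:7272394-7272513, plus strand: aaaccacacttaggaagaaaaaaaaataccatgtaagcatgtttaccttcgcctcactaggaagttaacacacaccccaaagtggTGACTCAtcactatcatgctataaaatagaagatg
Mmp3, chr9:7445702-7445821, plus strand: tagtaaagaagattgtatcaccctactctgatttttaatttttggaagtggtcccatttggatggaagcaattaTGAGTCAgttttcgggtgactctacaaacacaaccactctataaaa
Mmp10, chr9:7502222-7502341, plus strand: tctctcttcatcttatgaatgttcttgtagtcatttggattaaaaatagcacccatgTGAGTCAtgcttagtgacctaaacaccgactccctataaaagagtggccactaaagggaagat
Mmp7, chr9:7691970-7692089, plus strand: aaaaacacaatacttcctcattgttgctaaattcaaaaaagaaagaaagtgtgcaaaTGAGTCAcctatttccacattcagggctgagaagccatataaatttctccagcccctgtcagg
The pattern began 35 bases before the start in Mmp13, 46 in Mmp3 and 63 in both Mmp7 and Mmp10. It lay on the plus strand in Mmp13 and on the minus strand in the other three.

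The second kind are array probes, since base composition went with detection. The first 30 of the 60 bases of some probes follow, as the scanner files list them, with G and C in capitals and the probe's position in mm9.
Adam12, chr7:141075827-141075886: GaaaatCaaGttaGCaCtaattaCaaaatG
Adam12, chr7:141079625-141081861: atCaGaCCtGCCCCtaaGCatCaaGtaCCC
Adamts5, chr16:85858402-85858461: GGaCaCattGCaataCaGGtCCattCatta
Adamts5, chr16:85899450-85899509: CCaCGaCCCtCaaGaaCttttGCaaatGGC
Mmp9, chr2:164780620-164780679: CCaaCCttttCCaGCtaCtttaGtCaatCa
For Adam12 and Adamts5 the first probe of each pair, 35% G and C over all 60 bases, was above background on 0 arrays. The second, with 48.3% and 50% in that order, was above it on all 6. Of 26 member genes with several probes, 3 were split in this way (Adam12, Adam22 and Adamts5). The 22 member probes above background on no array had a median of 35% G and C, and the 32 above it on all 6 arrays had 45%. Over the whole array the medians were the same, 35% for 6635 probes and 45% for 13751. A member listed here as not above background is thus a statement about its probe.

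Detection of the family followed that of the array as a whole. On the 6 arrays, 47.2% to 67.0% of member probes were well above background, against 48.6% to 73.3% of all probes, and the members had the lower share on every array. By gene, 27 of 78 had a probe above background on all 6 arrays. The 14 with none on any array were Mmp9, Mmp12, Mmp14, Mmp15, Mmp16, Mmp19, Mmp20, Adam1b, Adam7, Adam10, Adam17, Adam29, Adam34 and Adamts4. A further 10 were above it on 1 array (Mmp2, Timp1 and Adam8) or 2 (Mmp1b, Mmp10, Mmp21, Adam4, Adam24, Adamts1 and Adamts20) and were not tested. Of the 78 genes, 54 (69.2%) passed the filter on 3 arrays, near the 68.3% of all genes. The share was 12 of 23 for MMPs, 3 of 4 for TIMPs, 23 of 32 for ADAMs and 16 of 19 for ADAMTS genes. Genes known from testis passed it too, 14 of 20 ADAMs of testis and epididymis and 10 of 14 germ cell markers, among them protamine 2 (Prm2) above background on all 6 arrays.

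**Figure D1:**
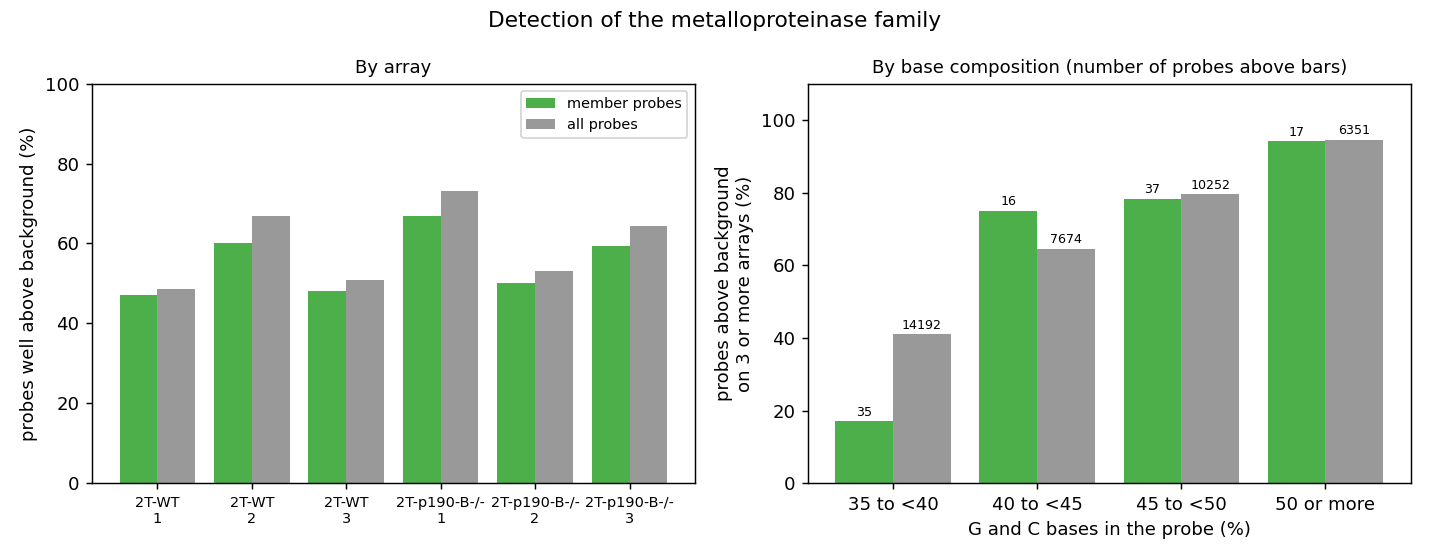
Left, share of probes well above background on each array, for member probes (green) and all probes (grey), where members run from 47.2% to 67.0% and lie below all probes on each array. Right, share of probes above background on 3 or more arrays by the percent of G and C in the probe, with the number of probes over each bar and probes under 35% left out; it rises from 17.1% of 35 member probes in the lowest class to 94.1% of 17 in the highest.

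On the scale used here, the family as a whole lay close to the array-wide shift. The 54 tested member genes had a median difference of -0.44, beside -0.35 for all genes, and 26 lay above that all-gene median and 28 below it. On slide 2 alone the member median was -0.37, and the same with slide as a block, beside -0.49 for all genes in each. Under quantile normalization the member median was -0.42, beside -0.11 for all genes, so the distance from the shift depended on the setting. By limma, 0 members passed an adjusted p of 0.05, as did 0% of all genes tested. Unadjusted, 4 of the 54 passed 0.05, with 6.37% of all genes, and the equal-variance t-test of the study's methods gave 0 after Benjamini-Hochberg adjustment. The lowest adjusted limma p of any member was 0.638. A p that misses the threshold does not show that the genotypes were alike.

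Groups without overlap were also near the array-wide share. In 1 member gene every 2T-p190-B-/- array was above every 2T-WT array, with 4.43% of all genes, and in 9 every 2T-p190-B-/- array was below, with 12.1% of all genes. At the methods' threshold (an unadjusted t-test p of 0.05 and a 2-fold difference) 1 member was higher and 4 were lower, beside 2.19% and 4.22% of all genes. These counts are read for description only.

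MMPs and the other families stood on different sides of the all-gene median once dim probes were filtered. Of 12 tested MMPs, 8 were higher in 2T-p190-B-/- and 4 lower, with a median difference of 1.02. The median was -0.92 for 23 ADAMs, -0.70 for 16 ADAMTS genes and -1.26 for 3 TIMPs. The MMP figure turned on single arrays and on the filter. It was 0.09 without 2T-p190-B-/- replicate 2, 1.45 without 2T-WT replicate 1, and from 0.41 (2T-WT replicate 2) to 0.64 (2T-p190-B-/- replicate 1) with any of the others left out. Over all 23 MMPs without the filter the median was -0.63 (8 higher, 15 lower), beside -0.52 for all genes. It was -0.36 over the MMPs above background on all arrays and -0.17 under the normexp background correction. Of the 12 tested MMPs, 2 had passed the filter through 2T-p190-B-/- arrays alone. No MMP had groups free of overlap.

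**Figure D2:**
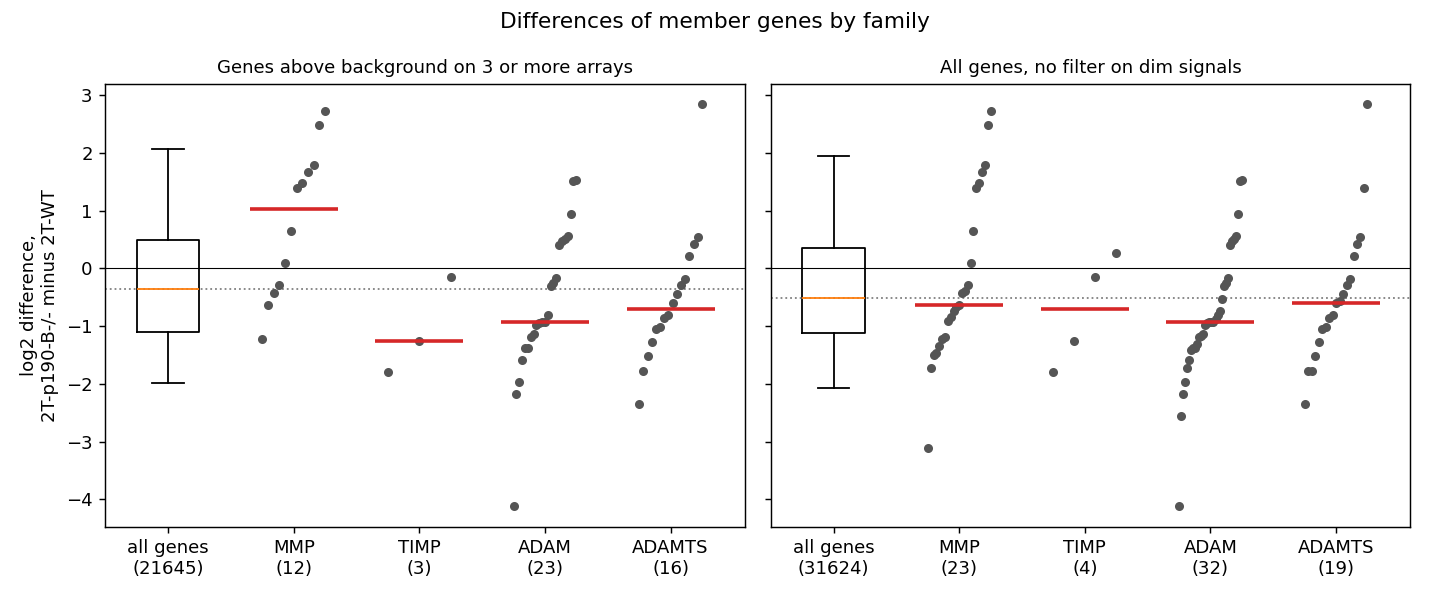
Log2 difference (2T-p190-B-/- minus 2T-WT) of each member gene by family, with red lines at family medians, beside the box of all genes (quartiles, with whiskers at the 5th and 95th percentiles and the dotted line at the median). With the filter (left) the 12 MMPs have a median of 1.02; without it (right) the 23 MMPs have a median of -0.63.

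The gelatinases, which cut denatured collagen and basement membrane, gave next to no signal. Mmp9 (gelatinase B) has a probe of 45% G and C on 10 spots, yet it was above background on 0 arrays, at -4.56, -4.91 and -3.69 in 2T-WT and -6.51, -5.01 and -5.67 in 2T-p190-B-/-. The SD between its spots was 0.14 to 0.76 within an array. Mmp2 (gelatinase A) was above background on a single array, 2T-p190-B-/- replicate 1 at -2.74. Its other arrays lay between -6.11 and -2.72.

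The collagenases open fibrillar collagen. Mmp8, the neutrophil collagenase, stood at -3.04, -2.58 and -1.74 in 2T-WT and at -2.11, -2.02 and 4.22 in 2T-p190-B-/-. The difference of 2.48 (SE 1.62) came from 2T-p190-B-/- replicate 3, and without that array it was 0.39, and 0.09 on slide 2. On the same array S100a8, a neutrophil calprotectin subunit, was at -0.11 against -6.23 to -4.35 elsewhere, but S100a9, its partner, was above background on 0 arrays. The summed linear level of 15 neutrophil markers was 13.2 to 16.7 in 2T-WT and 7.43 to 10.3 in 2T-p190-B-/-. Of these markers 2, S100a9 and Retnlg, were never above background. Replicate 3 of 2T-p190-B-/-, where Mmp8 and S100a8 were high, had the lowest sum of the 6 arrays, 7.43. A linear sum is weighted to its brightest markers, such as Lcn2 at 3.1 on 2T-WT replicate 1. Single markers were mixed on 2T-p190-B-/- replicate 3. Prtn3 (-0.53) and Cebpe (-0.90) had their highest value there, and Elane, Ctsg, Chil3 and Cd177 their lowest. The part of neutrophil RNA in the Mmp8 value was not tested.

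Mmp1a (a rodent interstitial collagenase) stood at 0.87, -6.14 and -4.22 in 2T-WT and 0.54, -2.59 and -2.98 in 2T-p190-B-/-. It was named after its values were seen, for its spread within each group. The groups overlapped across their whole range, and without 2T-WT replicate 2 its difference fell from 1.49 (SE 1.78) to -0.0030. Mmp13, which was bright on a single 2T-p190-B-/- array at 0.84, ranged from -2.75 to -1.29 in 2T-WT and reached down to -4.81 in 2T-p190-B-/-.

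Stromelysins and matrilysin cut proteoglycans and other MMPs, and Mmp3, Mmp7, Mmp10 and Mmp11 were named after their values were seen. Mmp3 and Mmp7 passed the filter only through 2T-p190-B-/-, the group where their means were higher, so the filter favoured that direction and their differences support nothing. Mmp3 (stromelysin-1) was above background on 0 of 3 2T-WT arrays, at -3.23, -4.08 and -2.54. It was above it on 3 of 3 2T-p190-B-/- arrays, at -3.40, 2.23 and -3.34. These calls rest on each array's own background, since -2.54 missed it where -3.40 and -3.34 passed. Replicate 2 of 2T-p190-B-/- carried the Mmp3 level, and the group means allow at least 2.80-fold higher in 2T-p190-B-/-. Without that replicate the difference of 1.78 (SE 1.49) became -0.08.

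Mmp7 (matrilysin) was likewise above background on 0 of 3 2T-WT arrays, at -3.95, -4.93 and -2.92. The 2T-p190-B-/- arrays stood at -3.91, -0.78 and -2.10, at least 1.65-fold higher on the mean. The lowest 2T-p190-B-/- value lay within the 2T-WT range. It counted as above background although the higher -2.92 of a 2T-WT array did not. Under normexp correction the Mmp7 difference turned from 1.67 (SE 0.98) to -0.50. Mmp10 (stromelysin-2) went the other way. It was above background on 2 2T-WT arrays (0.83 and -2.03, with -4.45 on the third) and on 0 2T-p190-B-/- arrays, at least 3.86-fold higher in 2T-WT, carried by replicate 1.

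Mmp11 (stromelysin-3) stood at -0.05, -4.73 and -4.35 in 2T-WT and -3.31, 1.67 and -3.29 in 2T-p190-B-/-, so each group had a single high array. Without the high 2T-p190-B-/- array its difference moved from 1.40 (SE 1.69) to -0.26.

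Among the membrane-type MMPs, Mmp25, also called leukolysin for its place in neutrophils, had the largest difference of the 12 tested MMPs. It stood at -0.85, -3.45 and -4.20 in 2T-WT and at 0.92, 0.45 and -1.67 in 2T-p190-B-/-. The groups overlapped, since 2T-WT replicate 1 was above 2T-p190-B-/- replicate 3. The difference was 2.73 (SE 1.10), from 2.05 to 3.72 with each array left out, 4.51 on slide 2 and 0.90 under normexp correction, with an adjusted limma p of 0.638. Mmp14 (MT1-MMP), the activator of proMMP-2, was above background on 0 arrays, as were Mmp15 and Mmp16. Over the 6 arrays Mmp14 ranged from -5.30 to -2.89. The other tested MMPs, Mmp17, Mmp23, Mmp24 and Mmp28, overlapped between groups, with differences from -1.22 (Mmp24) to 0.65 (Mmp23).

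The 10 MMP genes on chromosome 9 span 7282762 to 7697700 in mm9. Of the 6 that passed the filter, 5 were higher and 1 lower, but over all 10 it was 5 and 5, with a median of -0.14. Neighbours differed from each other. Mmp8 and Mmp27, an MMP of little known role, lie next to each other with differences of 2.48 and 0.10. Of the 7 genes with TGACTCA before their start, 4 were tested, and of these Mmp1a, Mmp3 and Mmp7 had a positive difference and Mmp13 a negative one. The other 3 (Mmp1b, Mmp10 and Mmp12) did not pass the filter, and their differences were negative, as was the median of all genes without the filter (-0.52).

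**Figure D3:**
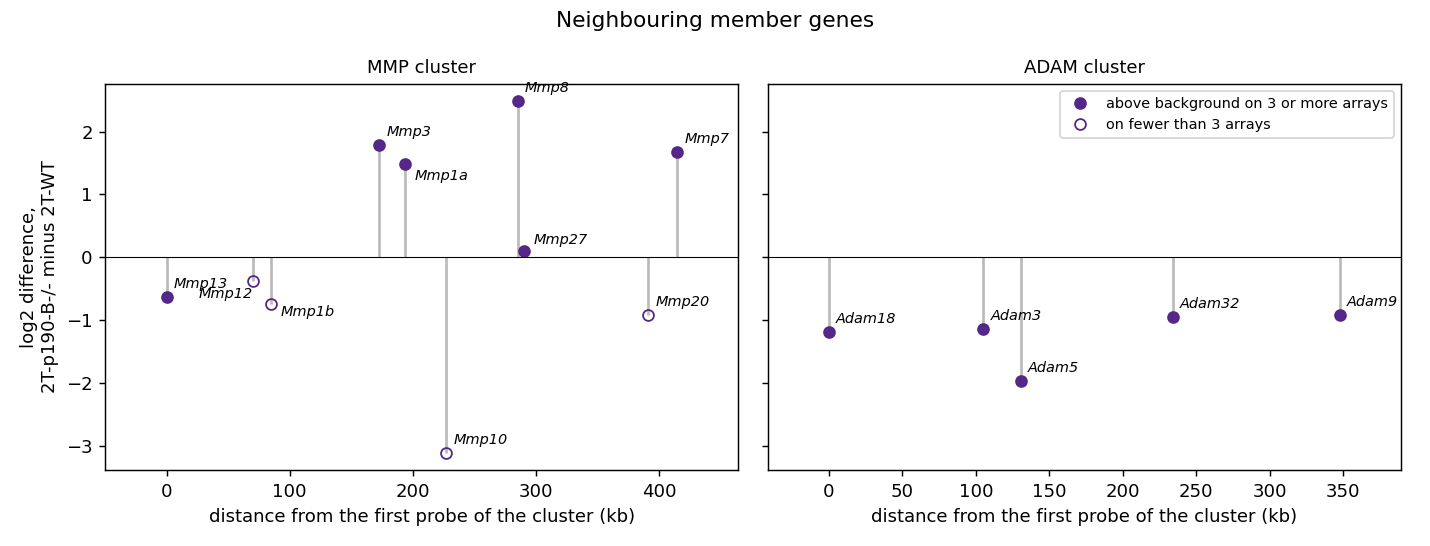
Log2 difference (2T-p190-B-/- minus 2T-WT) of neighbouring member genes against distance in kilobases from the first probe, for the MMP cluster of chromosome 9 (left) and an ADAM cluster of chromosome 8 (right). Filled points passed the filter on 3 arrays and open points did not; 5 of the 10 MMPs lie above 0, and all 5 ADAMs lie below it.

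The 3 tested TIMPs all had negative differences, none with groups free of overlap. Timp2, which inhibits MMPs and also takes part in activating proMMP-2, was above background on every array with both its probes. The brighter probe stood at 3.57, 2.88 and 0.17 in 2T-WT and 0.31, 0.24 and 0.69 in 2T-p190-B-/-. Replicate 3 of 2T-WT lay below all the 2T-p190-B-/- arrays, and the difference was -1.80 (SE 0.97). The second probe stood at 0.89, -1.01 and 0.86 against -0.92, -0.70 and -1.74, a difference of -1.36 (SE 0.80), with replicate 2 of 2T-WT inside the other group's range.

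Timp4 stood at 6.84, 3.47 and 5.77 in 2T-WT and 5.39, 3.25 and 3.67 in 2T-p190-B-/-. Its groups overlapped, and the difference of -1.26 (SE 1.05) was -0.30 on slide 2, -0.40 under quantile normalization and -0.52 without 2T-WT replicate 1. Timp3, the matrix-bound inhibitor that also blocks ADAM17, stood at -3.52, -1.59 and -2.29 against -2.47, -3.38 and -1.98, a difference of -0.14 (SE 0.80). Its sign changed when 2T-WT replicate 2 was left out (0.29) or 2T-p190-B-/- replicate 2 (0.24). Timp1 was above background only on 2T-p190-B-/- replicate 3, at -2.23, with -6.98 to -4.46 on the others, so no fold is given.

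Of 9 proteolytic ADAMs of somatic cells, 6 passed the filter (66.7%), near the 68.3% of all genes, and Adam8, Adam10 and Adam17 did not. Adam10, the main sheddase of Notch receptors, was above background on 0 arrays, between -7.05 and -4.43. Adam17, which releases TNF from the cell surface, was above it on 0 arrays with both probes, which overlap on the genome. Adam8, a sheddase of leukocytes, was above background only on 2T-WT replicate 1, at -1.33. The probes of Adam10 and Adam8 hold 35% G and C, and those of Adam17 hold 36.7% and 38.3%, in the class (35% to under 40%) of which 41.1% of all probes and 6 of 35 member probes passed the filter.

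Adam19, a sheddase of neuregulins, was the proteolytic ADAM whose groups did not overlap. It stood at 1.10, 1.01 and 2.59 in 2T-WT and at -0.12, -0.06 and 0.72 in 2T-p190-B-/-. The difference was -1.38 (SE 0.75), from -1.66 to -0.87 with each array left out, lowest in size without 2T-WT replicate 3, -0.80 under normexp correction and -1.89 on slide 2. Its probe has 35% G and C and was above background on all 6 arrays.

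The other proteolytic ADAMs of somatic cells overlapped between groups. Adam9 stood at -3.97, -2.45 and -1.94 against -4.06, -4.32 and -2.74, a difference of -0.92 (SE 0.84), and -2.00 on slide 2. Adam15 stood at 0.24, 0.47 and -2.05 against -1.31, -0.98 and 3.79. Its difference of 0.95 (SE 1.43) rested on 2T-p190-B-/- replicate 3, being -0.70 without it and -0.35 on slide 2. Adam28, an ADAM of lymphocytes, stood at -1.22, -2.58 and -3.44 against -2.78, -3.15 and -4.10. Its difference was -0.93 (SE 0.82), and 0.05 on slide 2.

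Adam23, an adhesive ADAM without the zinc site that binds integrins, was the 1 member higher on every 2T-p190-B-/- array. It was above background on 0 2T-WT arrays, at -4.46, -3.98 and -4.47, and on 3 2T-p190-B-/- arrays, at -3.58, -2.11 and -2.62. Measured against the lowest signal above background, this allows at least 1.15-fold. Adam23 passed the filter only through the group where it was high, so the filter favoured that direction and the difference supports nothing. Under normexp correction the difference turned from 1.54 (SE 0.71) to -0.73, and its other 2 probes did not pass the filter, with differences of 0.08 and -2.55.

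ADAMs of testis and epididymis held 6 of the 9 members that were lower on every 2T-p190-B-/- array, as 12.1% of all genes were. Of 14 tested, 3 were higher and 11 lower, with a median of -1.04. Adam5 stood at 0.73, 0.88 and 1.25 in 2T-WT and -1.40, -1.61 and -0.06 in 2T-p190-B-/-, a difference of -1.98 (SE 0.72). Its second probe, at -4.10, -2.75 and -0.08 against -3.27, -3.19 and -2.42, overlapped between groups.

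Adam3, which sperm need to pass into the oviduct, stood at -0.93, -1.56 and -0.10 against -2.53, -1.84 and -1.65. Its difference of -1.14 (SE 0.72) was -0.76 without 2T-WT replicate 3. The second tested Adam3 probe, at -4.59, -2.98 and -2.00 against -5.21, -5.05 and -3.00, overlapped between groups. Adam18 stood at -0.0044, 0.01 and 2.58 against -0.06, -0.44 and -0.46, and its difference of -1.18 (SE 0.88) was -0.32 without 2T-WT replicate 3. Adam30 stood at 0.42, -1.51 and -0.92 against -2.31, -2.87 and -1.59, a difference of -1.59 (SE 0.79) that was -1.04 without 2T-WT replicate 1.

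Adam18, Adam3 and Adam5 are neighbours of Adam32 and Adam9, and the 5 probes span 25712756 to 26060310 of chromosome 8 in mm9. All 5 differences were negative, from -1.98 to -0.92, and below the all-gene median of -0.35. Adam9 aside, these genes are known from testis. A second ADAM group of 6 genes, from 41767082 to 44735759 of the same chromosome, was mixed, with 2 higher and 2 lower of 4 tested and a highest difference of 1.51 for Adam26a. Germ cell markers were mixed too, with 4 higher and 6 lower of 10 tested and a median of -0.56. Over the 13 markers with complete values the summed linear level was 8.63 to 17.6 in 2T-WT and 9.96 to 14.6 in 2T-p190-B-/-, and 1 marker, Spaca1, was above background on 0 arrays.

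Adam6a and Adam6b lie among the variable segments of the immunoglobulin heavy chain locus on chromosome 12, at 114784564 and 114729640 in mm9. Adam6a stood at -0.33, -1.49 and -2.16 in 2T-WT and -3.44, -3.65 and -3.42 in 2T-p190-B-/-. Its groups stood more than 1 unit apart, with a difference of -2.18 (SE 0.73), from -2.60 to -1.68 with each array left out. Adam6b stood at 0.08, 0.49 and 1.82 against -0.32, -0.19 and -1.24, a difference of -1.38 (SE 0.77) that was -0.87 without 2T-WT replicate 3. The genes are close copies, so signal may be shared between their probes.

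B lineage genes were looked at for these 2 members after their values were seen. Over 10 B lineage markers the summed linear level was 12.5, 7.70 and 732 in 2T-WT and 8.90, 6.05 and 9.24 in 2T-p190-B-/-. The high array, 2T-WT replicate 3, owed most of it to Cd79a at 9.47, which was at most -1.65 elsewhere. Ebf1, Pax5, Vpreb1, Igll1, Rag1 and Ms4a1 also had their highest value on 2T-WT replicate 3, whereas Cd79b, Ighm and Blnk did not. On that array Adam6b had its highest value and Adam6a its lowest of the group. The sort's lineage gate, by the study's methods, takes out cells with B220, CD11b or Gr1 on their surface, among them B lineage and most myeloid cells. The part of B lineage RNA in the Adam6 values was not tested.

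Adam2, a fertilin subunit of sperm, was named for its single extreme value. It stood at -2.63, 6.75 and -0.38 in 2T-WT and -3.65, -3.07 and -1.90 in 2T-p190-B-/-, and the difference of -4.12 (SE 2.11) was -1.37 without 2T-WT replicate 2. The 11 remaining tested ADAMs overlapped between groups, with differences from -0.98 (Adam22) to 1.51 (Adam26a). Lone high arrays recurred across the family. In 9 of the member probes with complete values (8.57%) the highest array exceeded the next by at least 3 units, 8-fold, and 8.95% of all probes did. They fell on 5 of the 6 arrays, with 0 on 2T-WT replicate 1 and at most 2 on any array.

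**Figure D4:**
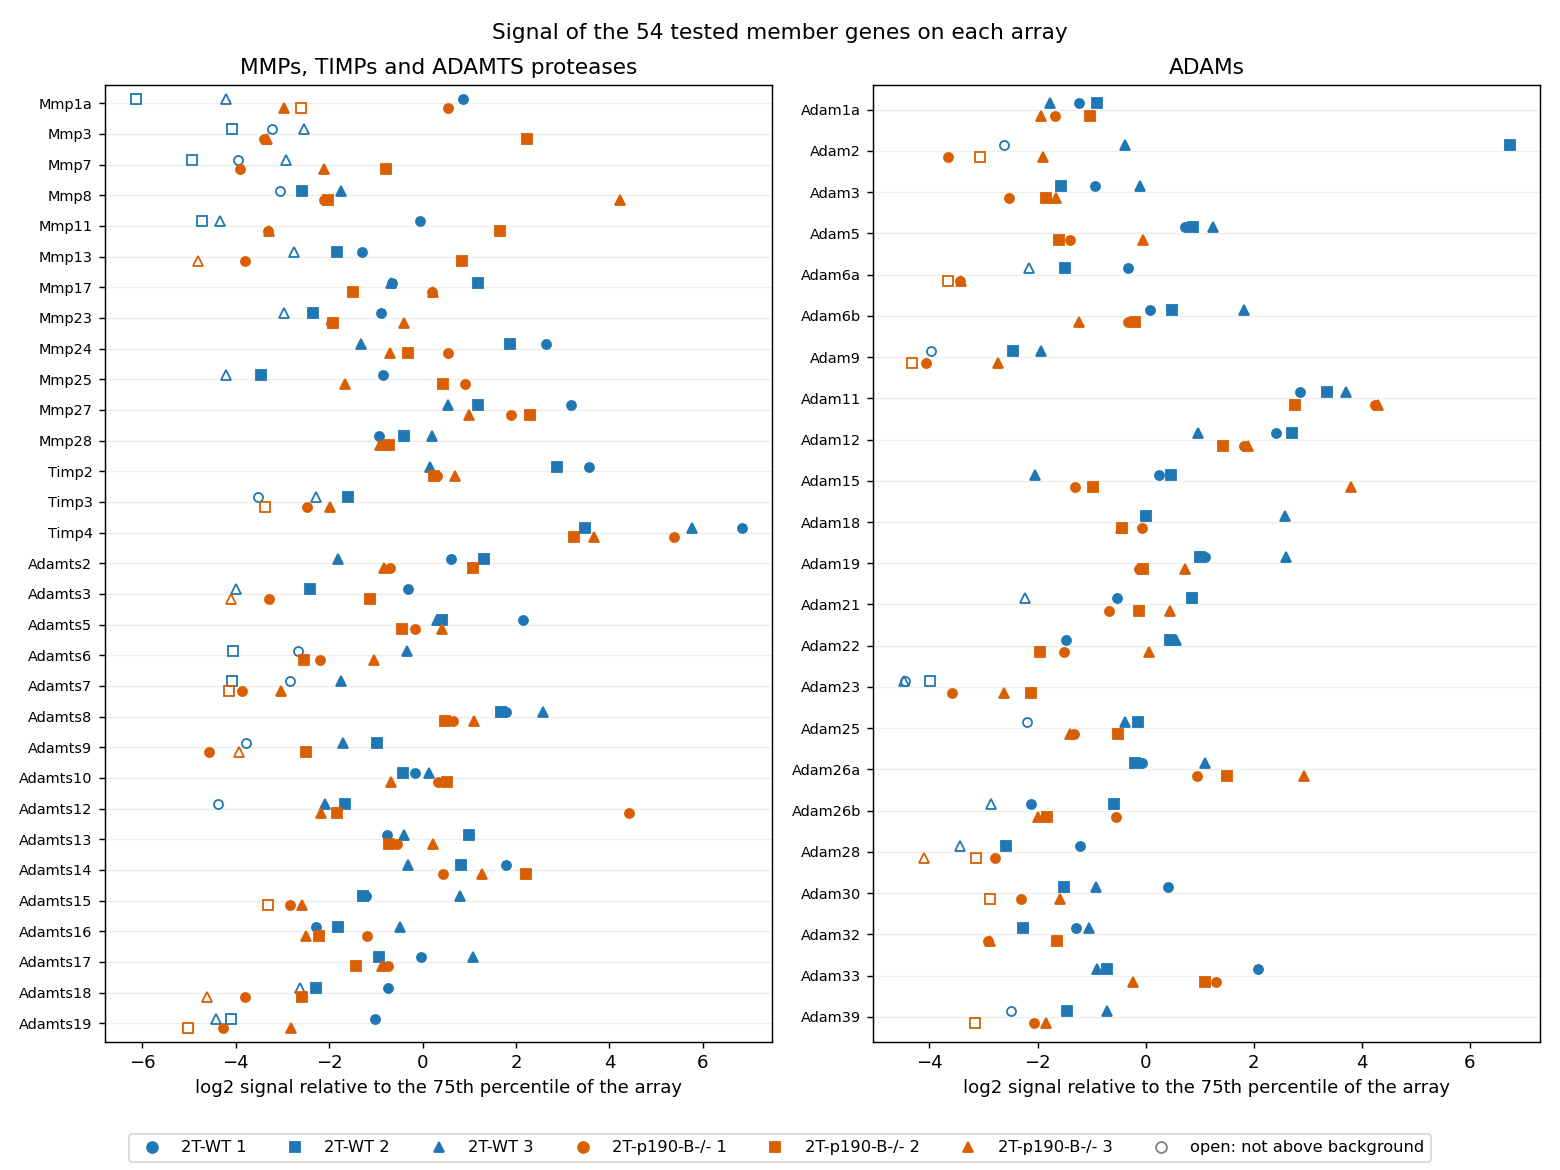
Log2 signal relative to the array's 75th percentile for the 54 tested member genes on each array, with blue for 2T-WT, orange for 2T-p190-B-/-, marker shapes for replicates 1 to 3 and open markers where the probe was not above background. Lone high arrays stand out for Adam2 (6.75), Adamts12 (4.42), Mmp8 (4.22) and Adam15 (3.79), while Adam5, Adam6a and Adamts15 separate the groups.

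ADAMTS proteases that cut proteoglycans were lower in all 4 of the tested genes, with a median of -1.39, but 3 more did not pass the filter. Adamts15 stood at -1.20, -1.29 and 0.81 in 2T-WT and -2.84, -3.31 and -2.57 in 2T-p190-B-/-. The groups did not overlap, and the difference was -2.35 (SE 0.81), from -2.71 to -1.66 with each array left out and -2.84 on slide 2. Adamts8, its neighbour on chromosome 9, stood at 1.79, 1.67 and 2.57 against 0.66, 0.47 and 1.09, a difference of -1.27 (SE 0.67), and -0.57 under normexp correction. The second Adamts8 probe was above background on a single array, 2T-p190-B-/- replicate 1 at 1.65, with -5.68 to -2.77 on the others. Adamts1, an aggrecanase with roles in ovulation and vessels, was above background on 1 array of each group, between -7.12 and -2.15. Adamts4 was above it on 0 arrays.

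The remaining ADAMTS genes overlapped between groups on the probe chosen. Adamts13, which cuts von Willebrand factor, stood at -0.76, 0.99 and -0.39 in 2T-WT and -0.54, -0.71 and 0.22 in 2T-p190-B-/-, a difference of -0.29 (SE 0.76). Its second probe stood at -0.38, 3.88 and -0.31 against -2.80, -1.68 and -0.73, with no overlap and a difference of -2.81 (SE 1.25). The probes thus differed in whether the groups separated. Adamts12 was named for its extreme value, at -4.39, -1.65 and -2.09 against 4.42, -1.82 and -2.18. Its difference of 2.85 (SE 1.74) was 0.71 without 2T-p190-B-/- replicate 1. The other tested ADAMTS genes outside the proteoglycan-cleaving group had differences from -1.78 (Adamts18) to 0.54 (Adamts14).

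Across the family, 10 genes had more than 1 tested probe, and in 2 of them, Adam33 and Adamts14, the probes differed in sign.

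Among the proteases that can activate proMMPs, 21 of 28 were tested, 8 higher and 13 lower, with a median of -0.59 and 0 past an adjusted p of 0.05 (limma; 2 unadjusted). Prss1, trypsin, stood apart. Its brighter probe was at -2.00, -2.94 and -4.47 in 2T-WT and at 3.67, 2.69 and 3.16 in 2T-p190-B-/-. The groups were separated by over 4 units, and the difference was 6.31 (SE 0.83, limma adjusted p = 0.159). The second probe stood at -3.12, -4.06 and -2.86 against 1.08, 1.77 and 2.85. It was above background on 0 2T-WT arrays and passed the filter only through 2T-p190-B-/-, where it was at least 29.6-fold higher (limma adjusted p = 0.180). Being chosen by the filter for that direction, it adds no support to the first. Mouse trypsin genes are a family of close copies, so which of them the probes bound is uncertain. The brighter probe's difference ran from 3.88 under normexp correction to 6.91 under quantile normalization, and its adjusted p from 0.148 to 0.567 over the alternatives in which it was tested.

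Other activators without overlap went both ways. Ctsb, the lysosomal protease cathepsin B, stood at -1.44, -0.40 and -0.09 against -2.37, -2.23 and -2.38, a difference of -1.69 (SE 0.69, limma adjusted p = 0.638). The mast cell tryptase Tpsab1 stood at -4.54, -3.60 and -4.22 against -2.31, -2.43 and -3.31, a difference of 1.44 (SE 0.69) that normexp correction turned to -0.70. For Tpsb2, a second mast cell tryptase, the brighter probe gave -1.46 (SE 0.80) and the other 1.94 (SE 0.69), each without overlap, so its direction depends on the probe. The brighter probe gave -0.20 under quantile normalization, -0.44 under normexp correction and -0.82 without 2T-WT replicate 3. For Mpo, myeloperoxidase, whose oxidants can activate proMMPs, the brighter probe gave -1.47 (SE 0.77), and -0.97 without 2T-WT replicate 3. The other Mpo probe had the opposite sign, 1.70 (SE 0.66), each probe without overlap, so the direction depends on the probe. That other probe was above background on 0 2T-WT arrays and passed the filter only through 2T-p190-B-/-. The filter thus favoured that direction, and no fold is given.

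Among other inhibitors and regulators 2 of 12 tested were higher and 10 lower, with a median of -0.71. Pzp, a broad protease trap of the alpha-2-macroglobulin type, stood at -0.02, -0.39 and 1.14 in 2T-WT and -1.70, -2.01 and -1.26 in 2T-p190-B-/-, a difference of -1.90 (SE 0.72). Spock2, a matrix proteoglycan, gave -1.17 (SE 0.72), and -0.76 without 2T-WT replicate 3. The 6 tested iRhoms and tetraspanins that guide ADAM17 and ADAM10 were split 3 and 3, with none free of overlap. These lists had 0 genes past an adjusted limma p of 0.05 (unadjusted, 1 and 0).

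Membrane proteins shed by ADAMs were lower in 15 of 21 tested, higher in 6, with a median of -0.78 and 0 past an adjusted limma p of 0.05 (1 unadjusted). In 5 the groups did not overlap, all lower in 2T-p190-B-/- on the brightest probe, where 12.1% of all genes were lower without overlap. Tnfrsf1b, the TNF receptor of type 2, stood at -1.50, -1.81 and 1.01 against -3.55, -2.43 and -4.62, a difference of -2.77 (SE 0.99), and -1.74 under normexp correction. Tnf gave -1.86 (SE 1.05), but -0.69 without 2T-WT replicate 1 and -0.86 on slide 2. Il6ra, an interleukin-6 receptor, gave -1.31 (SE 0.79), but -0.68 without 2T-WT replicate 3.

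Csf1r, the receptor of macrophage growth factor, gave -1.18 (SE 0.71) on its brightest probe, -0.74 without 2T-WT replicate 3, and quantile normalization turned this to 0.02. Cd44, the hyaluronan receptor, stood at 6.12, 5.48 and 6.57 against 4.56, 4.52 and 5.47 on its brightest probe, a difference of -1.21 (SE 0.70) that was -0.14 under quantile normalization and -0.25 under normexp correction. A second Cd44 probe, at -1.41, -1.17 and -3.67 against 2.44, 0.21 and 0.58, gave 3.16 (SE 0.97), also without overlap and in the opposite direction. Over 10 macrophage markers, Csf1r among them, the summed linear level was 58.7 to 165 in 2T-WT and 33.9 to 48.9 in 2T-p190-B-/-. Csf1r itself made up 80.9% to 92.8% of these sums. Over the other 9 they were 4.22 to 13.2 and 4.98 to 8.98, which overlap. Of 8 macrophage markers tested, 2 were higher in 2T-p190-B-/- and 6 lower. Without overlap, 1 was higher (Marco, a scavenger receptor) and 2 were lower (Csf1r and Cd5l), beside 4.43% and 12.1% of all genes. In sorted cells taken as bulk, fewer cells of a type and less RNA per cell cannot be told apart, and the part of other cells in these values was not tested.

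Matrix proteins that the family cuts were higher in 6 and lower in 12 of 18 tested. Their median was -0.10, beside -0.35 for all genes, with 12 above that all-gene median and 6 below it. By limma, 0 passed an adjusted p of 0.05 (2 unadjusted). Bgn, the small proteoglycan biglycan, stood at -2.60, -2.89 and -2.82 in 2T-WT and -0.58, -1.20 and -1.78 in 2T-p190-B-/-, a difference of 1.58 (SE 0.68) that normexp correction turned to -0.09. Lama1, a laminin chain, stood at 0.71, -1.45 and -1.51 against -2.83, -3.01 and -2.35, a difference of -1.98 (SE 0.82), and -1.25 without 2T-WT replicate 1. Of 10 stromal markers, which would bring matrix genes with them, 6 were above background on at least 3 arrays. Among these, Cxcl12, Col1a2 and Col3a1 were above it on all 6 arrays, whereas Pdgfra, Pdgfrb and Postn were above it on 0. The summed linear level was 2.22 to 6.13 in 2T-WT and 1.87 to 3.00 in 2T-p190-B-/-. The part of stromal RNA in these values was not tested.

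**Figure D5:**
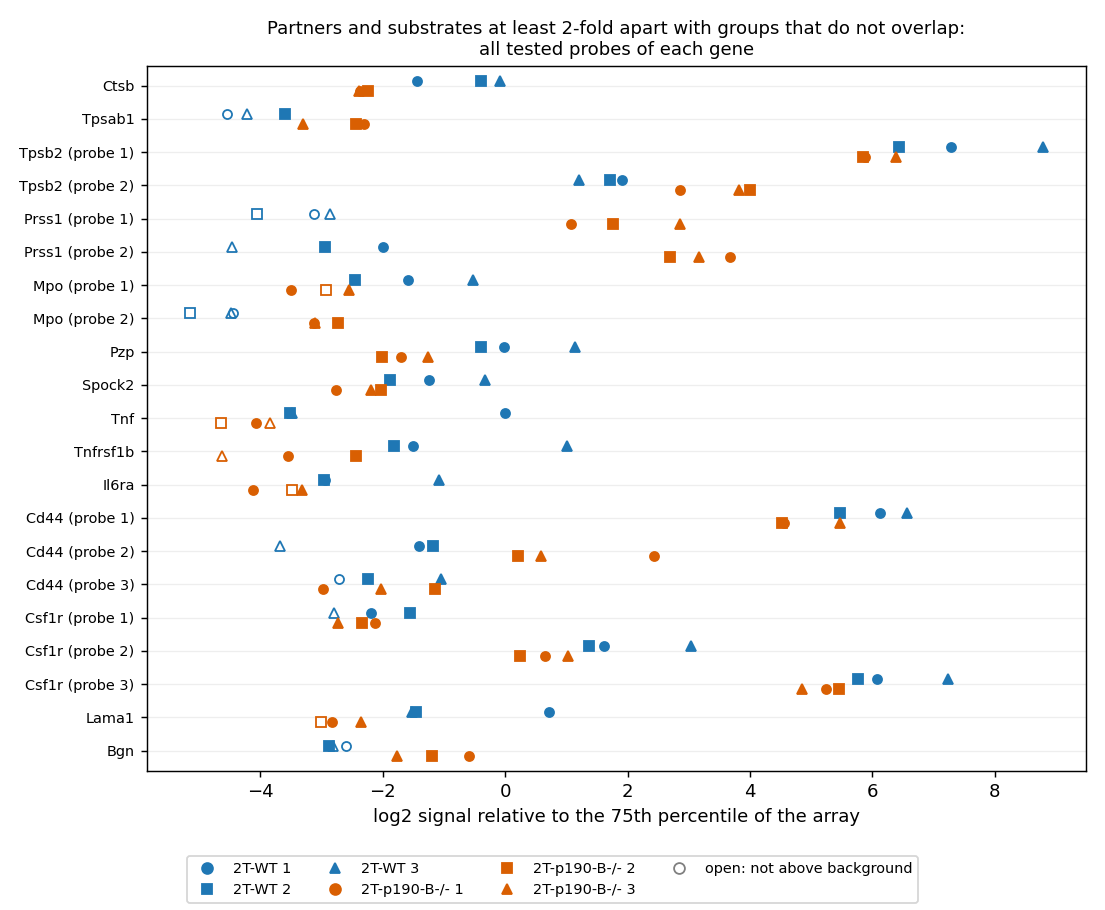
Log2 signal relative to the array's 75th percentile, by array, for all tested probes of the partner and substrate genes named in the text, with blue for 2T-WT, orange for 2T-p190-B-/- and open markers where the probe was not above background. Both Prss1 probes separate the groups by over 3 units, while Tpsb2, Cd44 and Mpo each have probes that separate them in opposite directions. Prss1 (probe 1) and Mpo (probe 2) have open markers on all 2T-WT arrays.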

How the data were processed

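RNA of LSK-SLAM cells from 3 2T-WT and 3 2T-p190-B-/- samples was measured. The authors deposited scanner output of Feature Extraction 10.5.1.1, which holds for each spot a linear intensity with its background removed and no scaling between arrays, and a matrix of the same intensity divided by 1 number per array. Here, control and outlier spots were left out, and log2 of the signal less that of the array's 75th percentile was averaged over a probe's spots. Probes above background on at least 3 arrays with 2 values per group were fitted with limma 3.58.1 (lmFit and eBayes, R 4.3.3; Benjamini-Hochberg over 25127 probes), and the steps were tested on simulated data. RefSeq's table (GRCm38.p6) updated the names of other genes and gave promoters, and all coordinates of probes are mm9. Having only 3 arrays per group limits all precision.

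The members and all gene lists were chosen with earlier results of these data known, and 2 genes of these lists are not reported here. Named were all TIMPs, 14 further members known from blood, each tested member and each tested gene of the partner lists that was at least 2-fold apart without overlap, and those said to be named after their values were seen. A bound (at least N-fold) sets the brighter group's mean against the dimmer group's, each dim array taken at no less than its lowest signal above background. Alternatives were quantile normalization, normexp with an offset of 50, no filter or a filter on all 6 arrays, the deposited matrix, slide or replicate number as a block, a variance trend with robust fit, the mean over a gene's probes, the methods' t-test and each array left out, and, added after seeing the data, slide 2 alone and the macrophage sum without Csf1r.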

Additional observations from a re-analysis of the deposited data

How the results depend on the processing

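No member passed limma's adjusted threshold under any alternative run. The member median of -0.44 stayed negative throughout, as did the median of all genes. Members and all genes stood at -0.61 and -0.44 under normexp, and at -0.80 and -0.52 without the filter. They stood at -0.32 and -0.23 on the deposited matrix, and at -0.61 and -0.32 with the mean over a gene's probes. The gap was wider under quantile normalization, at -0.42 and -0.11, and on slide 2 the order turned, at -0.37 and -0.49. With each array left out the member median was -0.51 to -0.41, and that of all genes -0.45 to -0.26. Member genes without overlap (1 higher, 9 lower) numbered 17 lower under normexp, 14 lower without the filter, 0 higher with the filter on all arrays, 3 higher on the deposited matrix, 2 higher with the mean over probes, and 8 higher and 19 lower on slide 2, where 2 arrays face 2. With each array left out they ran from 2 to 6 higher and 9 to 16 lower, fewer arrays being compared. Genes past the methods' threshold (1 higher, 4 lower) numbered 0 and 10 under normexp, 0 and 2 with the filter on all arrays, 2 higher on slide 2, and 0 to 1 higher and 0 to 4 lower with each array left out. Leaving out 2T-p190-B-/- replicate 1 gave the lower count of 0, and replicate 2 a lower count of 1. The members tested were 78 without the filter and 27 with the filter on all arrays, against 54 otherwise. Under normexp 13.9% of all genes passed the unadjusted limma threshold, against 6.37% on the scale used here. No share of all genes stands beside the counts of these alternatives, so a larger count is no result about the members.

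Of 39 named genes, 24 kept their sign in every alternative, and of 601 values 19 changed it. Many of the 601 could not change. The replicate block, the variance trend and the choice of filter leave the difference of a probe with complete values as it is. So does the mean over probes for a gene with a single tested probe. The deposited matrix shifts all genes by the same amount, and the slide block repeats the values of slide 2 alone. The 19 of 601 is thus no measure of robustness. Signs turned under normexp for Adam23 (-0.73), Mmp7 (-0.50), Tpsab1 (-0.70) and Bgn (-0.094), and under quantile normalization for Csf1r (0.022). They turned with the slide as a block, and alike on slide 2, for Adam15 (-0.35) and Adam28 (0.049), and with the mean over probes for Tpsb2 (0.24), Mpo (0.12) and Cd44 (0.63). With each array left out the difference ran from -0.70 to 1.85 for Adam15, -0.64 to 0.23 for Adamts13, -0.67 to 0.29 for Timp3, -0.084 to 2.73 for Mmp3, -0.0030 to 3.50 for Mmp1a and -0.26 to 2.90 for Mmp11. The cause was not tested beyond the arrays named with these genes.

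The labels do not say that a replicate number marks a shared mouse or day, and the legend's 3 occasions are not tied to numbers, so the numbers were not taken to pair the arrays. Deviations of same-numbered arrays correlated at 0.0090, 0.02 and 0.09 over 24873 probes, although 2 of 3 such pairs are the highest for their 2T-WT array. Each group has each number on a single array, so the replicate block cannot move the difference of a probe with complete values. The unchanged member median of -0.44 and the unchanged signs are therefore no outcome of that block. It can move p-values, and with it 0 members were called by limma and 4 of 54 passed an unadjusted p of 0.05.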
